A study of Mus musculus with 12 samples.

Results

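Tnf and the interleukin-1 cytokines were taken as 5 genes by their symbols, Tnf, Il1a, Il1b, Il1rn and Il18, among the 31053 genes listed for each library. Their transcripts were counted as unique molecular identifiers (UMIs), 1 for each captured RNA molecule, in single myeloid cells sorted from whole brains of 12 male C57BL/6J mice aged 90 days. The brains were perfused, freed of meninges as far as possible, and dissociated in 4 ways, with 3 mice each and 1 library per mouse. DNC-NONE brains were Dounce homogenized in the cold without inhibitors (replicates 1, 2 and 3), and DNC-INHIB brains were homogenized the same way with actinomycin D, triptolide and anisomycin, which block transcription or translation (replicates 4, 5 and 6). ENZ-NONE brains were digested with enzymes at 37 °C without inhibitors (replicates 4, 5 and 6), and ENZ-INHIB brains were digested the same way with the inhibitors (replicates 1, 2 and 3). In DNC-INHIB and ENZ-INHIB, actinomycin D and triptolide were already in the perfusion buffer, and anisomycin joined them in the dissection buffer. All 4 groups were wild type and untreated in life, and all cells passed a liberal gate for live CD45+/CD11b+ singlets, so every myeloid cell of the brain, its borders and any blood left in the vessels could enter.

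Tnf and interleukin-1 are the early alarm cytokines of macrophages. Tnf is made as a membrane protein and shed, and it signals through 2 receptors to NF-kappaB and to cell death pathways. Il1a and Il1b bind the same interleukin-1 receptor, which Il1rn, the receptor antagonist, occupies without signalling, while Il18 binds a receptor of its own. Il1b and Il18 are stored as precursors that caspase 1 cuts in the inflammasome, whereas Il1a is active uncut. In resting brain, microglia carry Il1a and Il18 transcripts, and Il1b and Tnf are the members best known for fast induction in stimulated myeloid cells.

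In the mm10 (GRCm38) annotation, Il1a lies on chromosome 2 from 129299610 to 129309972 on the minus strand, and Il1b lies 54597 bases further on at 129364570 to 129371139 on the same strand. Il1rn lies on the same chromosome at 24336853 to 24351494 on the plus strand, Tnf at 35199381 to 35202007 of chromosome 17 on the minus strand, and Il18 at 50554827 to 50581840 of chromosome 9 on the plus strand. Each count is a sum over a whole protein-coding gene. Genes on the opposite strand overlap Il1a (Gm14023), Il1b (Il1bos) and Il18 (Bco2 and Tex12), and the use of strand in the counting is not given in the sources used here. All 5 members matched a promoter in RefSeq (GRCm38.p6), Il1rn with 3 start sites, 7 promoters in all. The 250 bases before the start of Tnf (chr17:35202008-35202257, minus strand), Il1a (chr2:129309973-129310222, minus strand) and Il1b (chr2:129371140-129371389, minus strand) are shown 5′ to 3′, because these 3 members share a feature that the other 2 lack, with the TATA-type motif TATAAA in capitals:
Tnf: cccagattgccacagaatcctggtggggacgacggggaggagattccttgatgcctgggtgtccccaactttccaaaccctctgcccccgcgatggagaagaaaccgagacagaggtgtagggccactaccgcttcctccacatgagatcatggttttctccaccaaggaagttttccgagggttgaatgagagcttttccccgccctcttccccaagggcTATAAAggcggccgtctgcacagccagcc
Il1a: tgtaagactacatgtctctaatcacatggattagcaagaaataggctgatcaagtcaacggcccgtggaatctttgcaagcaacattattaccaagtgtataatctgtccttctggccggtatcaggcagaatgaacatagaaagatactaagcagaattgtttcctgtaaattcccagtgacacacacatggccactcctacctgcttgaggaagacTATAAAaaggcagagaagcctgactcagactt
Il1b: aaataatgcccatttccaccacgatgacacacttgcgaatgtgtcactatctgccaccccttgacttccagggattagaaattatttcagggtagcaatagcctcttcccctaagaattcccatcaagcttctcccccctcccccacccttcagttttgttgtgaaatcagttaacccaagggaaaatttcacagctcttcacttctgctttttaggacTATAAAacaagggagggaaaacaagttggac
The motif lay on the gene's strand at bases -29 to -24 of Tnf, -32 to -27 of Il1a and -31 to -26 of Il1b, counted back from the start site. In the same 250 bases of 32851 mouse promoters, 7.59% held TATAAA at any position on the gene's strand and 12.4% on either strand. The promoters were 300 bases long, and the 50 after the start were not searched. None of the 3 Il1rn promoters held it, and that of Il18 held it only on the opposite strand, at -175 to -170. The kappaB-type motif (GGG and TTCC with any 3 bases between), searched on both strands and held by 4.65% of promoters, was found at 1 Il1rn start site (-51 to -42). The AP-1-type motif TGANTCA, held by 6.75%, was found in Il1a (-12 to -6) and at another Il1rn start site (-141 to -135). These are matches of letters, not measured binding sites.

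The deposited tables held 28426 barcodes with 33742845 UMIs. Cells with at least 1000 UMIs, at least 500 genes and at most 10% mitochondrial UMIs were kept, 18830 in all (66.2%), with 855 to 2185 cells and 1062871 to 3233159 UMIs per library and median depths of 1153 to 1572 UMIs per cell. A kept barcode occurred in 2 or more libraries 236 times among 18594 distinct barcodes. The 10 microglia markers (Tmem119, P2ry12 and others) summed to 34000 to 39800 CPM (UMIs of the gene per 1e6 UMIs of the library) in ENZ-NONE and 35600 to 39300 CPM in the other groups. Neutrophil markers ranged from 10.8 to 3990 CPM in DNC-NONE, 8.36 to 385 in DNC-INHIB, 2.75 to 18.3 in ENZ-NONE and 1.56 to 520 in ENZ-INHIB, and monocyte markers from 68.9 to 268 CPM in ENZ-NONE and 42.1 to 417 in the others. ENZ-NONE replicate 6 stood apart: a cluster led by Fos, an immediate early gene, held 47.3% of its microglia-like cells and 0.256% to 11% of those in the other 11 libraries. Values without this library are given beside the results that it moved most.

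Il1b had the largest fold difference among the 3 members tested, while the difference in CPM was larger for Il1a. Il1b was higher in all 3 ENZ-NONE libraries than in each of the other 9, in level and in the share of cells that carried it. In ENZ-NONE replicates 4, 5 and 6, Il1b had 17, 11 and 159 UMIs, or 7.81, 7.16 and 58.2 CPM. The DNC-NONE libraries had 15, 4 and 5 UMIs (6.00, 3.76 and 2.78 CPM), the DNC-INHIB libraries 4, 8 and 13 (1.90, 3.04 and 4.02 CPM), and the ENZ-INHIB libraries 8, 12 and 10 (4.31, 4.52 and 3.90 CPM). Replicate 6 alone held 59.8% of all 266 Il1b UMIs with 9.28% of the cells, and its level was 7.45 times that of the next library. The other 2 ENZ-NONE libraries lay just above the range of the other groups, whose highest member was DNC-NONE replicate 1.

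In CPM, ENZ-NONE averaged 24.4 ± 29.3 (SD, n = 3) and the other 9 libraries 3.80 ± 1.17 (SD), a difference of 20.6 CPM (two-sided exact permutation test, p = 0.00909, the smallest that 220 splits can give). Within batch 1 the means were 7.48 CPM in 2 ENZ-NONE libraries and 3.99 in 4 others, and within batch 2 they were 58.2 in 1 library and 3.65 in 5 (exact permutation within batches, p = 0.0222, the smallest possible). Without replicate 6 the 2 remaining ENZ-NONE libraries averaged 7.48 CPM and still exceeded all 9 (exact permutation p = 0.0364, the smallest possible). In the fit over all genes, Il1b was 7.0-fold higher than the mean of the other 3 preparations, a log2 fold change of 2.81 (SE 0.49, edgeR quasi-likelihood test, Benjamini-Hochberg adjusted p = 0.00444). It was the only member called among the 3 that passed the low-count filter (Il1a, Il1b and Il18), in a comparison that called 64 of 9884 genes, or 0.648%. Without replicate 6 its log2 fold change came to 0.96, and the call was lost (adjusted p = 0.482). A gene was called at an adjusted p under 0.05 and an absolute log2 fold change over 0.58.

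Against single preparations Il1b was called once. It was 3.12 higher on the log2 scale than in DNC-INHIB (SE 0.67, adjusted p = 0.0277 by edgeR), where 0.789% of all genes were called, and 1.28 higher without replicate 6 (adjusted p = 0.262). This call was also lost without DNC-INHIB replicate 4, 5 or 6 (2.92, 3.1 and 3.42, with adjusted p of 0.118, 0.137 and 0.107 by edgeR). Il1b was 2.62 higher than in DNC-NONE (log2, SE 0.69, adjusted p = 0.13), a comparison with 0.617% of genes called, and 2.68 higher than in ENZ-INHIB (log2, SE 0.65, adjusted p = 0.113), with 0.374% called. Both passed the threshold without ENZ-NONE replicate 4 (3.07 and 3.11, adjusted p = 0.0167 and 0.00899 by edgeR) or replicate 5 (3.0 and 3.05, adjusted p = 0.0253 and 0.0156). With all libraries, none of the 3 members tested was called in either, but with batch as a covariate, which called 0.496% of genes, Il1b was called against ENZ-INHIB (log2 3.01, adjusted p = 0.00283 by edgeR), as it was after thinning to 1000 UMIs (3.01, adjusted p = 0.0411). The interaction of dissociation and inhibitors, which called 0.172% of genes, gave 2.18 for Il1b (SE 1.19, adjusted p = 1, edgeR), and 0.34 without ENZ-NONE replicate 6. An inhibitor effect that differed between the 2 dissociations was thus not shown in this fit. Without the low-count filter, Il1b was called in the interaction (adjusted p = 0.00827, edgeR), against DNC-NONE and against ENZ-INHIB. That fit called 73, 203 and 142 genes in the same order, against 17, 61 and 37 with the filter. No member was called in the comparisons without ENZ-NONE. In these, 10 genes (0.101%) were called between ENZ-INHIB and DNC-NONE and 15 (0.152%) between ENZ-INHIB and DNC-INHIB. Between DNC-INHIB and DNC-NONE, 0 were called by edgeR and by DESeq2. There, 467 of 9884 genes had an unadjusted edgeR p under 0.05, near the share that this threshold gives without any difference. These comparisons share libraries, and exact tests of 3 against 3 libraries cannot go below p = 0.1.

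The share of cells with an Il1b UMI was low in every library. After each cell was thinned to 1000 UMIs, it was 0.510%, 0.536% and 2.75% in ENZ-NONE replicates 4, 5 and 6 and 0.102% to 0.381% in the other 9 libraries. The means were 1.26% and 0.240% (exact permutation p = 0.00909, and p = 0.0364 without replicate 6). Unthinned, 70 of 1748 cells of replicate 6 carried Il1b, 4.0% (exact Clopper-Pearson 95% interval 3.13 to 5.03), while replicate 4 had 0.573% (0.262 to 1.09) and replicate 5 had 0.715% (0.309 to 1.40). The unthinned shares did not separate the groups, since DNC-NONE replicate 1 had 0.707% and ENZ-INHIB replicate 1 had 0.588%, both above ENZ-NONE replicate 4. Intervals and floors on counts cover counting error only. A positive cell of replicate 6 also held more molecules, 2.27 Il1b UMIs on average against 1.45 in the other 11 libraries, and its 3 richest cells held 23.9% of its Il1b UMIs, up to 18 in a single cell.

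**Figure D1:**
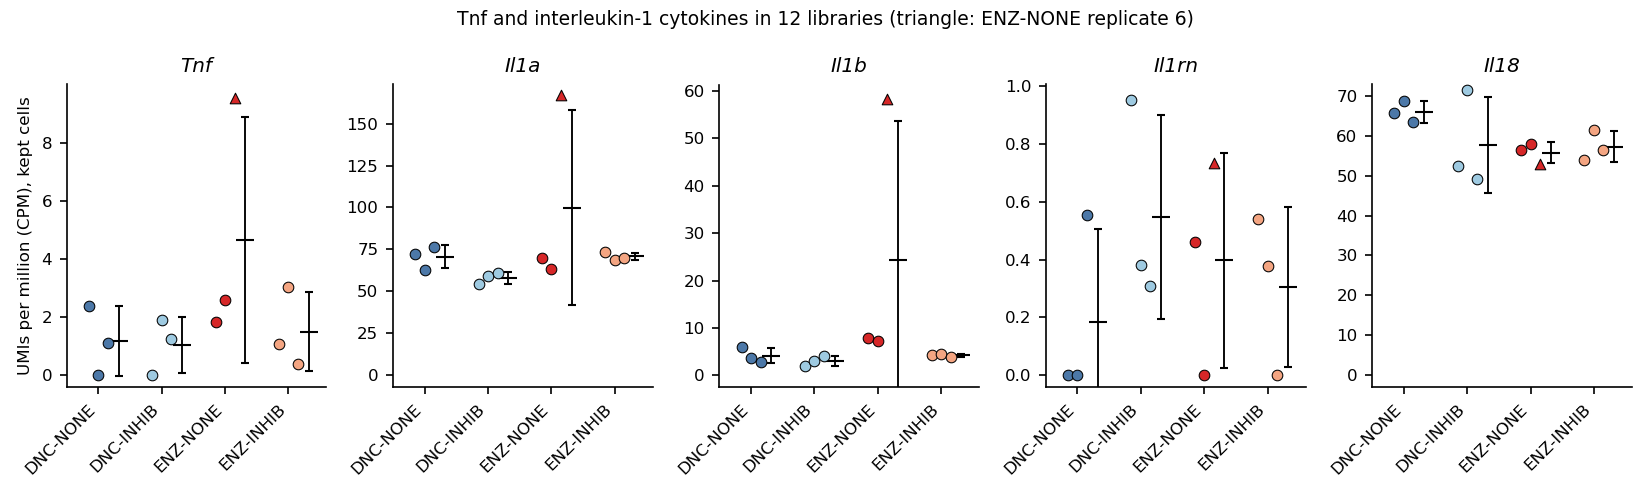
Level of each member in CPM (vertical axis, its own scale in each panel) in the 12 libraries by preparation; points are libraries, the triangle is ENZ-NONE replicate 6, and bars are the mean and SD of 3 libraries, cut at the axis where the SD reaches below 0. Replicate 6 was the highest library for Tnf (9.52 CPM), Il1a (167 CPM) and Il1b (58.2 CPM), and lay within the range of the others for Il1rn and Il18.

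Il1a was counted in every library and was the member with the most UMIs, 2059 in 1811 cells. DNC-NONE had 72.4, 63.0 and 76.6 CPM, DNC-INHIB 54.2, 59.3 and 61.2, ENZ-NONE 69.8, 63.1 and 167, and ENZ-INHIB 73.3, 69.0 and 70.2. Apart from replicate 6 of ENZ-NONE, 11 libraries lay between 54.2 and 76.6 CPM, with the 3 DNC-INHIB libraries the lowest. ENZ-NONE replicate 6 had 457 UMIs and 20.1% positive cells (95% interval 18.2 to 22.0), 2.18 times the level of the next library. The mean of ENZ-NONE, 100 ± 58.1 CPM (SD, n = 3), did not differ from that of the other 9, 66.6 ± 7.47, beyond the spread between libraries (exact permutation p = 0.255), and without replicate 6 the means were 66.5 and 66.6 CPM (exact permutation p = 1). In the edgeR fit the log2 fold change against the mean of the other 3 preparations was 0.68 (95% interval 0.284 to 1.08, adjusted p = 0.253), and 0.022 without replicate 6 (adjusted p = 0.988). Without replicate 4 or 5 of ENZ-NONE, which gives replicate 6 more weight, it was 0.91 in both cases and was called (adjusted p = 0.0498 and 0.0285, edgeR). With batch as a covariate and all libraries, Il1a was also called against the mean of the other 3 (0.73, adjusted p = 0.0389, with 0.739% of genes called) and against DNC-INHIB (0.98, adjusted p = 0.0207, with 1.02% called). The lower level in DNC-INHIB, 58.2 ± 3.62 CPM (SD, n = 3) against 70.7 ± 6.96 in DNC-NONE and 70.8 ± 2.22 in ENZ-INHIB, separated all 3 libraries from the 3 of each other group at the smallest exact permutation p that the design allows (0.1). It was not called in the fit over all genes, with a log2 fold change of -0.29 against DNC-NONE (SE 0.27, adjusted p = 1, edgeR).

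Tnf was rare, with 62 UMIs in 60 of 18830 cells, and did not pass the low-count filter. ENZ-NONE held 4, 4 and 26 of its UMIs, ENZ-INHIB 2, 8 and 1, DNC-INHIB 0, 5 and 4, and DNC-NONE 6, 0 and 2. ENZ-NONE replicate 6 held 41.9% of them, in 26 cells with 1 UMI each. Its level, 9.52 CPM, was 3.15 times that of the next library (ENZ-INHIB replicate 2), while ENZ-NONE replicates 4 and 5 had 1.84 and 2.60 CPM, within the range of the others. ENZ-NONE averaged 4.65 ± 4.23 CPM (SD, n = 3) and the other 9 libraries 1.24 ± 1.05 (exact permutation p = 0.0636, and p = 0.0444 within batches). The means in batch 1 were 2.22 CPM in 2 ENZ-NONE libraries and 0.870 in 4 others, and in batch 2 they were 9.52 in 1 and 1.53 in 5. Without replicate 6 the mean was 2.22 CPM (exact permutation p = 0.255). In an edgeR fit without the low-count filter, which called 0.987% of 16511 genes, Tnf was called against the mean of the other 3 preparations (log2 fold change 1.89, adjusted p = 0.00227), but not without replicate 6 (0.67, adjusted p = 1) and not by DESeq2 (1.93, adjusted p = 0.809). The same held against DNC-INHIB, where the unfiltered value was 2.16 (adjusted p = 0.015, edgeR, with 1.27% of genes called), and 0.93 without replicate 6 (adjusted p = 0.9). The libraries with 0 UMIs, DNC-NONE replicate 2 and DNC-INHIB replicate 4, allow up to 0.351% and 0.194% of cells with a Tnf UMI (3 cells of the library), a limit on detected cells and not on cells that express the gene.

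Il18 showed no detectable difference between ENZ-NONE and the rest. It had 1572 UMIs in 1465 cells and 49.2 to 71.5 CPM over the 12 libraries, with DNC-INHIB replicates 6 and 5 the lowest and the highest. The group means were 65.9 ± 2.71 CPM in DNC-NONE, 57.7 ± 12.1 in DNC-INHIB, 55.7 ± 2.64 in ENZ-NONE and 57.3 ± 3.81 in ENZ-INHIB (SD, n = 3). ENZ-NONE minus the other 9 was -4.54 CPM (exact permutation p = 0.373), and the edgeR log2 fold change against the mean of the other 3 preparations was -0.075 (95% interval -0.285 to 0.135, adjusted p = 0.947). The ENZ-NONE libraries all lay below the 3 DNC-NONE libraries, and so did the ENZ-INHIB libraries (exact permutation p = 0.1 in both, the smallest possible). Neither difference was called by edgeR (log2 fold change -0.20, adjusted p = 0.763, for ENZ-NONE). The groups other than DNC-NONE overlapped.

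Il1rn, the antagonist, had 10 UMIs in 10 cells, none in 4 libraries and at most 2 in any library, and did not pass the low-count filter. Its levels were 0 to 0.95 CPM, and ENZ-NONE and the other 9 libraries averaged 0.397 and 0.346 CPM (exact permutation p = 0.845). At these depths a library with 0 UMIs allows up to 1.17 to 2.82 CPM. In ENZ-NONE replicates 4 and 5, Il1rn was at 0.459 and 0 CPM, where 3 UMIs are 1.38 and 1.95 CPM. For Il1b the mean of these 2 libraries was 3.68 CPM above that of the other 9. A rise of that size in CPM was thus above the limit and was not seen for Il1rn, while smaller ones could have been missed. The same fold as that of Il1b (7.48 against 3.80 CPM), taken from an Il1rn mean of 0.346 CPM, would lie below the limit. These counts therefore cannot show whether Il1rn changed by the same fold as Il1b. In sums over cells, fewer cells of a type and less RNA per cell cannot be told apart, which the classes below address in part.

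To place the members in cells, the kept cells were clustered without the 5 members and without the activation genes listed by the study. A cluster was named from at least 3 fixed markers among its 30 leading genes. Failing that, it was named microglia-like where at least 3 microglia markers were detected, their level was not far below that of the other cells, and no other class was clearly raised. All microglia-like clusters were named by this second rule, with microglia markers at 27260 to 42090 CPM. Microglia-like cells numbered 17950 of 18830. Border macrophage-like cells numbered 320 in 2 clusters, 213 cells led by the MHC class II genes H2-Eb1, H2-Aa and Cd74, followed by the border macrophage marker Ms4a7, the monocyte marker Ccr2 and the border macrophage marker Pf4, and 107 led by the classical border macrophage genes Pf4, Mrc1 and F13a1. The name is firm for the second cluster. The first received it by the rule only, and is called the H2-Eb1-led cluster here, since in it microglia markers summed to 6344 CPM (39110 CPM in the largest microglia-like cluster) and monocyte markers to 1314 CPM. Of its 213 cells, 116 met the microglia gate by single-cell markers and 43 the border macrophage gate. Monocyte-like cells numbered 123, led by S100a8, Chil3 and Plac8, with neutrophil markers at 47730 CPM, and 12 of them met the neutrophil gate. A cluster of 70 cells led by Cd209a, Gzma and MHC class II genes stayed unnamed.

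Most Il1a UMIs lay in microglia-like cells, which were also most of the cells. Il1b was carried by larger shares of the classes named border macrophage-like and monocyte-like than of microglia-like cells. Microglia-like cells held 451 of 457 Il1a UMIs in ENZ-NONE replicate 6 and 1562 of 1602 in the other 11 libraries. The share of Il1a-positive cells was 9.85% (95% interval 9.42 to 10.3) in microglia-like cells, 1.56% (0.509 to 3.61) in border macrophage-like and 0.813% (0.0206 to 4.45) in monocyte-like cells, at median depths of 1333, 1562 and 1927 UMIs, and 0 of 70 in the Cd209a-led cluster. The share in the deeper monocyte-like cells rests on 1 UMI in 123 cells, and a part of free RNA in the Il1a shares was not tested. Of the Il1b UMIs, 46.5% lay outside microglia-like cells in ENZ-NONE replicate 6 and 57.0% in the other 11 libraries. The Il1b-positive share was 0.513% (0.413 to 0.628) in microglia-like, 7.19% (4.61 to 10.6) in border macrophage-like and 12.2% (6.99 to 19.3) in monocyte-like cells. Without ENZ-NONE replicate 6 these shares were 0.239% (0.17 to 0.327), 6.25% (3.75 to 9.7) and 8.65% (4.03 to 15.8). The border macrophage-like share of 7.19% pooled 10.8% of the 213 H2-Eb1-led cells with 0 of the 107 Pf4-led cells, whose name is the firm one. Il18 was carried by 7.72% of microglia-like, 6.88% of border macrophage-like and 8.94% of monocyte-like cells. Its mean level over the libraries was 59.4 ± 6.97, 39.6 ± 32.9 and 21.9 ± 36.9 CPM in the same order (SD, n = 12). The classes differ in depth, and the differences in Il18 between them were not tested. A part of free RNA in the Il18 shares was not tested.

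In microglia-like cells the rise of Il1b and Il1a was that of replicate 6. Il1b was at 2.84, 2.72 and 33.4 CPM in ENZ-NONE replicates 4, 5 and 6 and at 0.404 to 3.63 CPM in the other 9 libraries, with 85 of 131 UMIs in replicate 6. The means, 13 and 1.99 CPM, did not differ beyond the spread between libraries (exact permutation p = 0.0909, and 2.78 against 1.99 CPM, p = 0.364, without replicate 6). Il1a was at 70.2, 63.3 and 177 CPM against 56.3 to 78.9 (exact permutation p = 0.345). Tnf was at 1.90, 2.72 and 7.85 CPM against 0 to 2.60 CPM, the means being 4.16 and 0.886 (exact permutation p = 0.0182). That call was lost without replicate 6 or without replicate 5 (exact permutation p = 0.0727 in both), and rests on 4, 4 and 20 UMIs. No difference in Il18 was detected (exact permutation p = 0.418).

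The Fos-led cluster held much of the excess of replicate 6. It had 1164 cells, 783 of them from that library, and its leading genes included Dusp1, Egr1, Ccl3, Ccl4, Jun and Zfp36. In replicate 6, Il1a was at 264 CPM in Fos-led cells and 94.7 CPM in its other microglia-like cells, and Il1b was at 55.7 and 12.2 CPM. The other microglia-like cells of this library thus stayed above the highest Il1a level in microglia-like cells of the other 11 libraries, 78.9 CPM. Among the Fos-led cells of the other 11 libraries pooled, 381 cells, Il1a was at 141 CPM (74 UMIs) and Il1b at 15.2 CPM (8 UMIs). The members and the study's activation genes were not used to form the clusters, but most cells of this cluster came from 1 library, so these levels are a description.

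In microglia-like cells of replicate 6, the same cells tended to carry both interleukins. Of 53 Il1b-positive cells, 43.4% (95% interval 29.8 to 57.7) also had Il1a, against 20.1% of 1603 Il1b-negative cells, 58.5% against 40.5% had Fos, and 47.2% against 22.9% had the chemokine Ccl4. Il18 was in 7.55% and 7.74%. The positive cells were slightly deeper, with medians of 1548 and 1471 UMIs. In microglia-like cells of the other 11 libraries, 15.4% (5.86 to 30.5) of 39 Il1b-positive and 8.72% of 16255 negative cells had Il1a, and 17.9% against 2.45% had Ccl4. Fos was in 0 of the 39 (95% interval 0 to 9.03%) and in 2.82% of the negative cells, too few to show a difference. Over all kept cells of these 11 libraries, 16.2% of 74 Il1b-positive cells had Fos, against 3.03% of negative cells. Fos and Ccl4 were chosen here after their values had been seen.

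**Figure D2:**
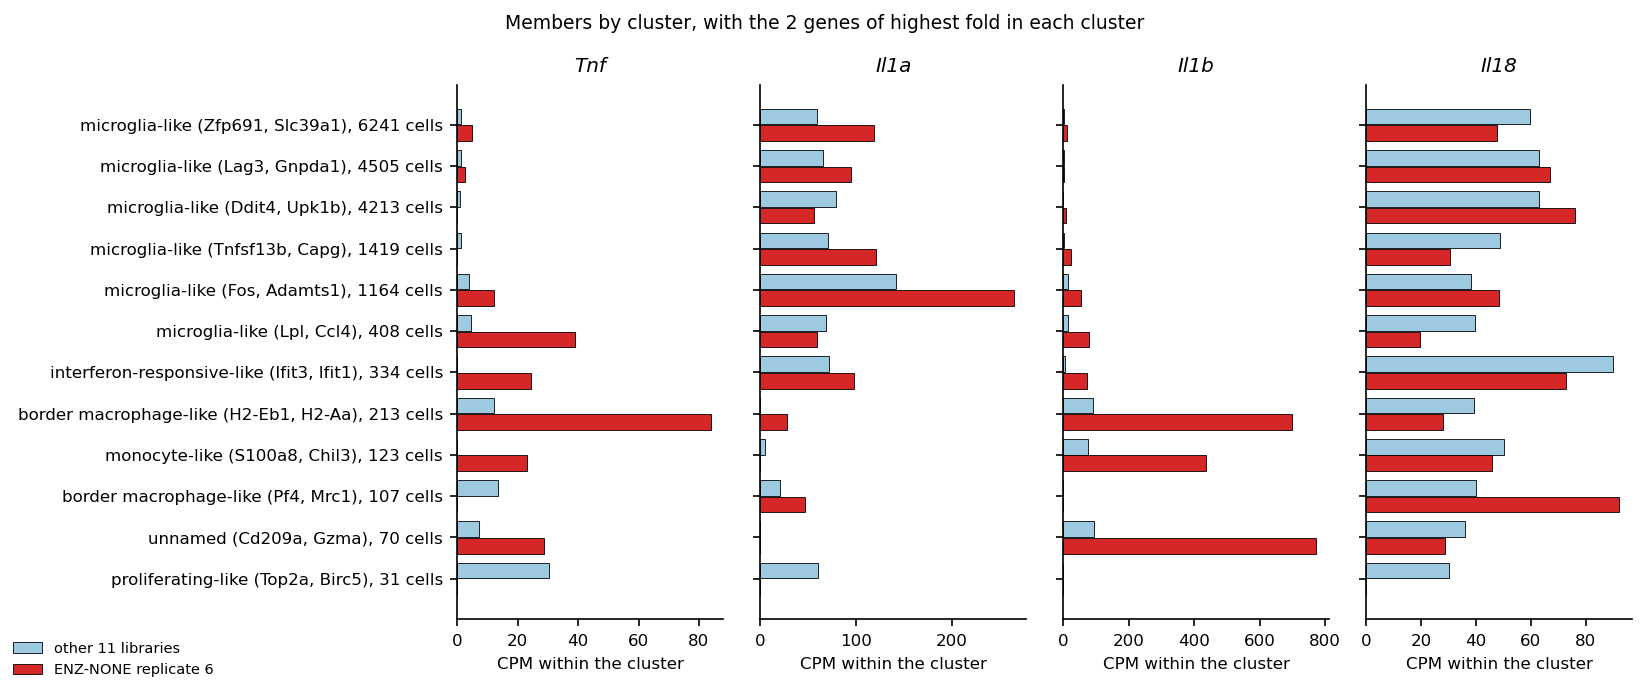
Level of Tnf, Il1a, Il1b and Il18 in CPM of summed UMIs (horizontal axes, own scale in each panel) in 12 clusters, each named with its 2 leading genes and its number of cells; red bars are ENZ-NONE replicate 6 and blue bars the other 11 libraries pooled. Over all libraries Il1a was at 56.5 to 227 CPM in microglia-like, interferon-responsive-like and proliferating-like clusters and at most 23.3 CPM in the others, whereas Il1b was highest in the H2-Eb1-led, S100a8-led and Cd209a-led clusters of replicate 6 (699, 436 and 774 CPM).

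In the H2-Eb1-led cluster Il1b was higher in all 3 ENZ-NONE libraries than in the other 9. It was at 244, 385 and 699 CPM in replicates 4, 5 and 6, from 8, 7 and 25 UMIs in 5 of 19, 4 of 11 and 5 of 19 cells. ENZ-INHIB had 86.7, 31.2 and 0 CPM, DNC-INHIB 51.8, 0 and 175, and DNC-NONE 29.5, 26.8 and 0. The groups did not overlap, with a difference of 398 CPM (exact permutation p = 0.00909, the smallest possible), but this cluster was singled out after its values had been seen. The Pf4-led cluster, with the classical border macrophage markers, had 0 Il1b UMIs in 107 cells (95% upper bound 3.39%), but held only 2, 2 and 13 ENZ-NONE cells. Over both clusters together, the class that the rule named border macrophage-like, the ENZ-NONE libraries had 229, 341 and 435 CPM and the other 9 had 0 to 125. The means were 335 and 32.0 CPM (exact permutation p = 0.00909, p = 0.0222 within batches, both the smallest possible), and 285 and 32.0 CPM without replicate 6 (exact permutation p = 0.0364, the smallest possible).

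On the log2(CPM + 20) scale the rise of Il1b was 2.61 larger in this class than in microglia-like cells (exact permutation of the library differences, p = 0.00909, and p = 0.0222 within batches). That scale understates the change of low levels such as those in microglia-like cells, and no other constant was tried. In microglia-like cells, ENZ-NONE replicates 4, 5 and 6 had 2.84, 2.72 and 33.4 CPM (mean of the other 9, 1.99). In the class they had 229, 341 and 435 CPM (mean of the other 9, 32.0), so in replicate 6 the plain ratio was not larger in the class. The difference between the classes belongs to the clusters, and single-cell markers could not decide whether it holds for border macrophages. Of the 55 Il1b UMIs of the class, 5 lay in cells that met the border macrophage gate, 25 in cells that met the microglia gate and 24 in cells that met none. With the gates in place of clusters, the border macrophage difference was 229 CPM (exact permutation p = 0.5). The 120 cells of that gate held only 5 Il1b UMIs over all libraries, too few for this test to decide. No difference in Il18 between preparations was detected in the class (exact permutation p = 0.536).

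In monocyte-like cells no difference between preparations was seen. Il1b was at 0, 0 and 436 CPM in ENZ-NONE from 0, 0 and 19 UMIs in 5, 3 and 19 cells. ENZ-INHIB had 0, 654 and 280 CPM, DNC-INHIB 0, 140 and 0, and DNC-NONE 88.2, 0 and 0. The values of 654 and 280 CPM came from 1 positive cell each, and the means were 145 and 129 CPM (exact permutation p = 0.918). The 12 cells of this cluster that met the neutrophil gate had 0 Il1b UMIs. The Cd209a-led cluster held 27 UMIs in 3 of 12 cells of ENZ-NONE replicate 6, of which 18 were in 1 cell, and 0 to 5 UMIs in each other library. Of 15 tests of a member in a class, 8 rested on under 20 UMIs, with a lowest exact permutation p of 0.255.

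**Figure D3:**
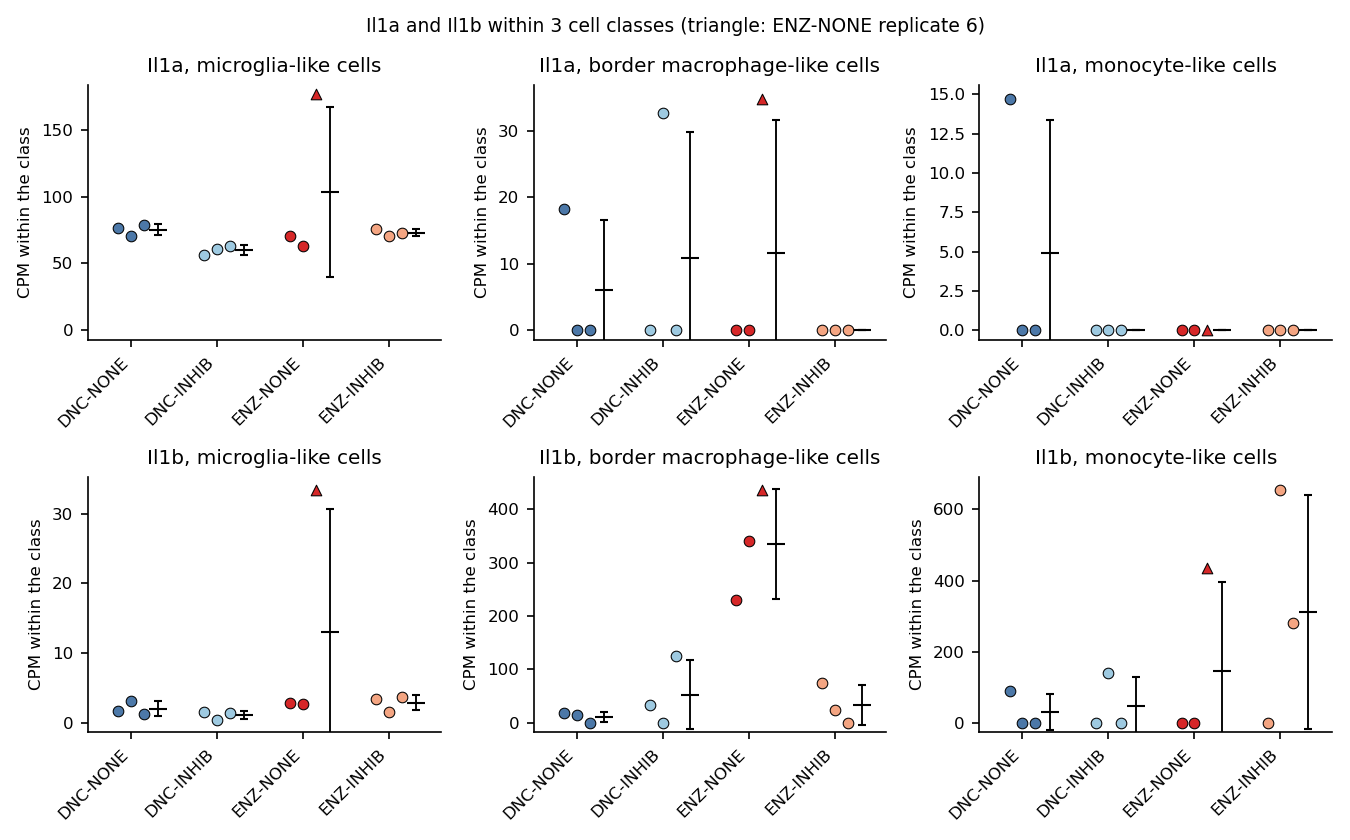
Il1a (upper row) and Il1b (lower row) in CPM of summed UMIs within microglia-like, border macrophage-like and monocyte-like cells (vertical axis, own scale in each panel) by preparation; points are libraries, the triangle is ENZ-NONE replicate 6, and bars are the mean and SD of 3 libraries, cut at the axis where they reach below 0. For Il1b in the class named border macrophage-like, whose Il1b UMIs all lay in the H2-Eb1-led cluster, all 3 ENZ-NONE libraries (229 to 435 CPM) lay above the other 9 (0 to 125 CPM), while in microglia-like cells only replicate 6 did.

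**Figure D4:**
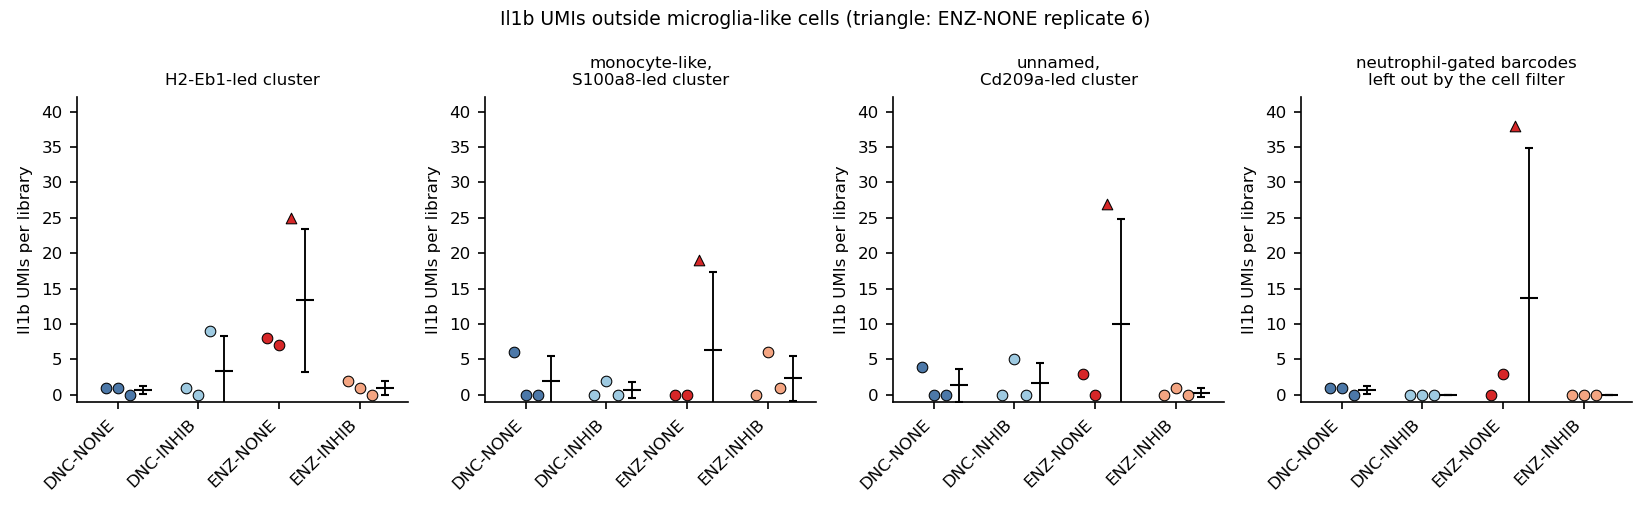
Il1b UMIs per library (vertical axis, a count) in the H2-Eb1-led cluster, the S100a8-led monocyte-like cluster, the unnamed Cd209a-led cluster and the barcodes that met the neutrophil gate but not the cell filter, by preparation; points are libraries, the triangle is ENZ-NONE replicate 6, and bars are the mean and SD of 3 libraries. Replicate 6 was the highest library in each panel, with 25, 19, 27 and 38 UMIs.

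Around the members, 74 genes of the same pathways were examined in 5 lists by role: 68 had UMIs and 56 were tested. Against the mean of the other 3 preparations, 4 were higher in ENZ-NONE and 0 lower (7.14% of those tested, against 0.648% of all genes), and all 4 belonged to the 19 genes of transcription and mRNA decay. Over all genes, 54 of the 64 called were higher and 10 lower. None was called among 4 ligands (Tnfsf9, with a log2 fold change of 1.09 and an adjusted p of 0.649, was the largest), 11 processing genes such as Casp1 (0.079) and Nlrp3 (-0.19), 5 receptor genes such as Tnfrsf1a (-0.025) and Il1rap (-0.013), and 17 proximal signalling genes such as Myd88 (0.14) and Traf6 (0.44), all as edgeR log2 fold changes. The median log2 fold change was 0.0998 over the transcription and decay list, 0.0369 over all 56 and 0.00241 over all genes tested.

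The 4 genes called were 2 mRNA decay factors and 2 atypical IkappaB proteins. Zfp36, which binds AU-rich elements of Tnf and other cytokine mRNAs and speeds their decay, was at 250, 261 and 633 CPM in ENZ-NONE and at 33.5 to 85.6 CPM in the other 9 libraries. By edgeR it rose by 3.16 on the log2 scale (SE 0.24, adjusted p = 9.35e-08), and by 2.53 without replicate 6 (adjusted p = 1.78e-09). Zfp36l1, of the same family, was at 445, 381 and 520 CPM against 239 to 391 CPM, with a log2 fold change of 0.72 (adjusted p = 0.00647, edgeR) that was not called without replicate 6 (0.58, adjusted p = 0.0657). Nfkbiz, which acts with NF-kappaB in the nucleus, was at 13.3, 16.9 and 44.3 CPM against 2.82 to 10.2 CPM (2.17, adjusted p = 0.000916, and 1.34, adjusted p = 0.0445, without replicate 6). Nfkbid, a nuclear relative, was at 23.4, 16.9 and 42.1 CPM against 3.76 to 11.3 CPM (1.86, adjusted p = 0.000158, and 1.34, adjusted p = 0.00425, without replicate 6). For 3 of these genes all 3 ENZ-NONE libraries exceeded the other 9. Zfp36, Nfkbid and Nfkbiz are also in the activation lists that the study drew in part from these samples. Neither their direction nor the share of pathway genes called is therefore independent evidence, and the pathway lists were chosen with earlier results of these data known.

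In single comparisons, 3 of the 56 genes were higher than in DNC-NONE, 4 than in DNC-INHIB and 3 than in ENZ-INHIB, with 0 lower (2, 2 and 1 without replicate 6). These were 5.36%, 7.14% and 5.36% of the 56, against 0.617%, 0.789% and 0.374% of all genes. Over all genes 42, 48 and 37 were higher and 19, 30 and 0 lower. Without replicate 6, 90, 60 and 32 of all genes were called. Zfp36 was the only gene of the lists with a called interaction of dissociation and inhibitors, 2.98 on the log2 scale (adjusted p = 0.0132, edgeR), and 2.34 without replicate 6 (adjusted p = 0.000341).

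**Figure D5:**
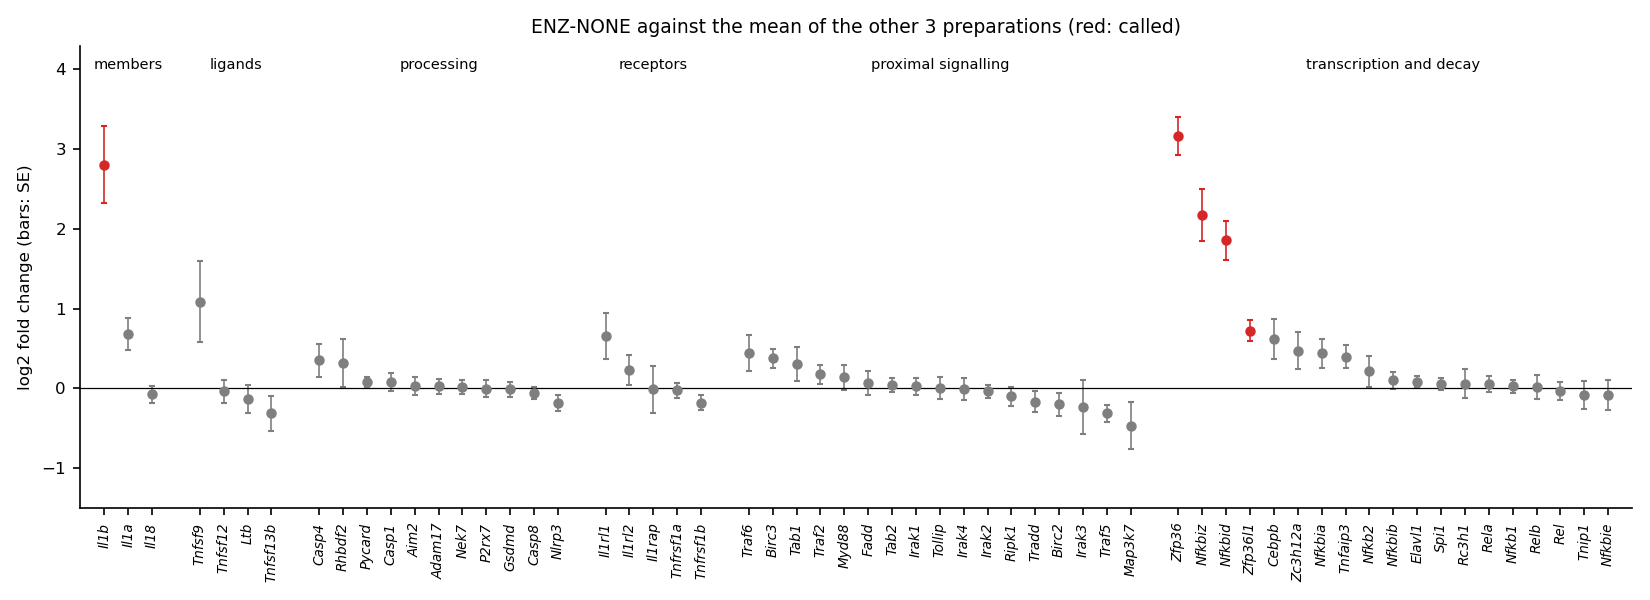
Log2 fold change in ENZ-NONE against the mean of the other 3 preparations (vertical axis, bars are SE) for the 3 members and 56 pathway genes tested, grouped by role and ordered by size within each group; red points were called. Il1b (2.81), Zfp36 (3.16), Nfkbiz (2.17), Nfkbid (1.86) and Zfp36l1 (0.72) were called, and the ligands, processing genes, receptors and proximal signalling genes were not.

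The genes most like each tested member across the 12 libraries were ranked by Pearson's r of log2 CPM, given as a description, since the libraries share batches and replicate 6 weighs on each value. For Il1b they were Btg1 (r = 0.965, and 0.854 without replicate 6), Klf6 (0.93 and 0.704) and Ier5 (0.917 and 0.70). For Il1a they included Icam1 (r = 0.91 and 0.596) and Vps37c (0.889 and 0.818). For Il18 they were Smu1 (r = 0.833 and 0.835), Gmps (0.829 and 0.861) and Eprs (0.828 and 0.825). Il1a and Il1b had r = 0.92 with replicate 6 and 0.446 without it, whereas Il18 had -0.088 with Il1a and -0.125 with Il1b.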

How the data were processed

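Single cells were captured with the 10x Genomics 3′ kit (version 2 chemistry), and the deposited files hold UMI counts per gene and barcode that the authors made with Cell Ranger 3.0.0 on mm10 and did not normalize. Whether counting used strand is not given in the sources used here. Kept barcodes had at least 1000 UMIs, at least 500 genes and at most 10% mitochondrial UMIs. Cells were clustered with scanpy 1.11.5 and leidenalg 0.10.2 (2000 variable genes, 30 components, 20 neighbours, resolution 1, seed 1). Doublets were not removed, and an alternative left out the 2% of cells per library with the highest Scrublet scores. Gates took cells with at least 3 detected markers of a class and more than of any other.

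UMIs were summed over the kept cells of a library, the replicate being the mouse, and tested with edgeR 4.0.16 (quasi-likelihood test, TMM scaling, low-count filter, all 12 libraries in 1 fit) with Benjamini-Hochberg adjustment over 9884 genes. DESeq2 1.42.0 was an alternative. On simulated counts over 9847 genes for ENZ-NONE against the mean of the other 3, 94 of 99 genes changed by 1 on the log2 scale and 98 of 98 changed by 2 were recovered. Single values were compared by two-sided exact permutation of libraries (scipy 1.17.1), also within the 2 batches named in the labels. Replicate libraries differed by more than sampling noise in all 12 pairs (chi-square per degree of freedom 1.6 to 6.5), so none was counted as a repeat. The genes named were the 5 members, pathway genes called in a comparison with ENZ-NONE, and the 3 genes most like each tested member, of which 1 is not reported here. The members, lists and rules were chosen with earlier results of these data known. Alternatives were the count model, scaling, filters, depth, batch, classes, and leaving out each library.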

Additional observations from a re-analysis of the deposited data

Results flagged for a closer look

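On the log2(CPM + 20) scale, which understates the change of low levels, the rise of Il1b in ENZ-NONE differed between cell classes. It was 2.61 larger in the 2 clusters named border macrophage-like than in microglia-like cells (exact permutation p = 0.00909). With any single library left out it was between 2.37 and 2.84 larger. Of the 55 Il1b UMIs of those clusters, all in the H2-Eb1-led one, 25 lay in cells that met the microglia gate and 5 in cells that met the border macrophage gate. With gates in place of clusters the border macrophage difference had an exact permutation p of 0.5, but that gate held only 5 Il1b UMIs in 120 cells, too few to decide.

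Zfp36 differed in its response to the inhibitors between the 2 dissociations, by 2.98 on the log2 scale (adjusted p = 0.0132, edgeR interaction term).

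Members also had UMIs in barcodes that the cell filter left out, 357 of them in ENZ-NONE replicate 6. Il1b was at 264 CPM there (60 UMIs), at 12.0 CPM in ENZ-NONE replicate 5 and at 0 to 10.1 CPM in the other 10 libraries. Il1a was at 101 CPM (23 UMIs) against 45.1 to 75.5 CPM in the other 11. Tnf was at 17.6 CPM (4 UMIs) against 0 to 5.96 CPM, and Il1rn also at 17.6 CPM (4 UMIs) against 0 to 7.76 CPM. Of the 60 Il1b UMIs, 38 lay in 11 barcodes that met the neutrophil gate. Over ENZ-NONE, 11 of 15 neutrophil-gated barcodes below the filter carried Il1b (73.3%, exact Clopper-Pearson 95% interval 44.9 to 92.2), against 2 of 25 in the other 9 libraries (8.0%, 0.984 to 26). This split by gate was chosen after the values had been seen, it rests mainly on 1 library, and it was not tested.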

How the results depend on the processing

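Il1b in ENZ-NONE against the mean of the other 3 preparations kept its call under the 7 alternatives that kept all libraries and gave a value (2.77 to 3.16 on the log2 scale), and of the 12 libraries left out in turn it lost its call without ENZ-NONE replicate 6. In microglia-like cells alone Il1b did not pass the low-count filter and has no fitted value. Depth limits Tnf and Il1rn, with 62 and 10 UMIs. Tnf was called without the low-count filter (1.89 against the mean of the other 3 and 2.16 against DNC-INHIB), an alternative chosen after seeing the data, but not without ENZ-NONE replicate 6 (0.665 and 0.93) or by DESeq2 (1.93 and 2.19). No other cause of a change was tested.

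Leaving out each library in turn, genes called ranged from 44 to 71 against the mean of the other 3 (64 with all libraries), from 40 to 90 against DNC-NONE (61), from 50 to 92 against DNC-INHIB (78), from 29 to 56 against ENZ-INHIB (37), from 0 to 1 for DNC-INHIB against DNC-NONE (0), from 0 to 61 for ENZ-INHIB against DNC-NONE (10), from 2 to 23 for ENZ-INHIB against DNC-INHIB (15) and from 6 to 19 for the interaction (17). The counts that moved by over 1.5 times came without DNC-NONE replicate 2 (40 against DNC-NONE), DNC-INHIB replicate 5 or 6 (50 against DNC-INHIB) and ENZ-NONE replicate 5 (56 against ENZ-INHIB), and in the 4 other comparisons without 1 or more libraries each, 0 being reached for ENZ-INHIB against DNC-NONE without ENZ-INHIB replicate 1 or 2 and 61 without ENZ-NONE replicate 6. Without the low-count filter these counts were 163, 203, 209, 142, 86, 215, 98 and 73, and against DNC-NONE they split into 77 higher and 126 lower (42 and 19 with the filter), as they did into 35 and 55 without ENZ-NONE replicate 6. With only the 2 groups in the fit they were 38 against DNC-NONE and 3, 33 and 32 in the comparisons without ENZ-NONE. For ENZ-INHIB against DNC-NONE, 19 genes were called with all barcodes, 3 after thinning and 18 by DESeq2. For ENZ-INHIB against DNC-INHIB, 24 were called with batch as a covariate and 24 in microglia-like cells, 8 after thinning and 9 by DESeq2. For DNC-INHIB against DNC-NONE, 2 were called with batch and 1 in microglia-like cells.

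Log2 fold changes of Il1b ranged over the left-out libraries from 0.964 to 3.25 against the mean of the other 3, 0.785 to 3.11 against DNC-NONE, 1.28 to 3.56 against DNC-INHIB and 0.83 to 3.11 against ENZ-INHIB, those of Il1a from 0.0216 to 0.912, -0.0754 to 0.817, 0.21 to 1.1 and -0.0694 to 0.82, and those of Il18 from -0.118 to 0.177 against DNC-INHIB and -0.069 to 0.0445 against ENZ-INHIB, the lowest Il1a and Il1b values each without ENZ-NONE replicate 6. Il1a was called without the filter (0.679, 0.592, 0.864 and 0.582 in the same order) and with batch as a covariate (0.732 against the mean and 0.984 against DNC-INHIB). The unfiltered fit called 0.987% of 16511 genes against the mean and 1.27% against DNC-INHIB, and the batch fit 0.739% and 1.02% of 9884. Unfiltered, 203 genes were called against DNC-NONE, 142 against ENZ-INHIB and 86 for DNC-INHIB against DNC-NONE, where the filtered fit called 0. For Il1a in CPM, ENZ-NONE against the other 9 libraries gave an exact permutation p of 0.255. Il1b was called against DNC-NONE (2.63) and ENZ-INHIB (2.67) and in the interaction (2.19) without the filter, and against ENZ-INHIB with batch (3.01) or thinning (3.01), but was not called against DNC-INHIB with only the 2 groups in the fit (3.14). Values near 0 changed sign. Il18 against DNC-INHIB was 0.0146 with batch, 0.0413 with all barcodes, 0.00237 in microglia-like cells, 0.0342 after thinning and 0.0151 without the cells of highest Scrublet score, and against ENZ-INHIB 0.00717 with batch, 0.00363 in microglia-like cells and 0.0212 without those cells. Between ENZ-INHIB and DNC-NONE, Il1a was 0.00965 without the filter, 0.039 with all barcodes, 0.00836 by DESeq2 and -0.0667 to 0.0573 over left-out libraries, and Il1b was 0.112, 0.00934 without those cells, 0.0107 by DESeq2 and -0.294 to 0.431. Between ENZ-INHIB and DNC-INHIB, Il18 was -0.00126 in microglia-like cells, -0.00609 without those cells and -0.102 to 0.194 over left-out libraries. The Il1a interaction ranged from -0.354 to 0.538.

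The difference in the share of positive cells ranged over left-out libraries from 0.12 to 0.539 percentage points for Tnf and -0.283 to 4.24 for Il1a. For Tnf it was past the threshold at 0.152 with 500 UMIs per cell and 0.374 in microglia-like cells, and -0.0148 at 2 or more UMIs. For Il1b it was 0.698 in microglia-like cells (exact permutation p = 0.0636). For Il1rn it was 0.0114 unthinned, 0.0252 with 500 UMIs and 0 at 2 or more UMIs. In CPM over left-out libraries, Il1a in microglia-like cells ranged from -2.68 to 54.1, Tnf from 1.42 to 4.4 and Il1b in monocyte-like cells from -129 to 88.6, and the class difference of Il18 from -0.803 to 0.177 (log2).

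The replicate numbers name different mice. In 6 pairs of libraries with the same number the correlation of deviations from the group means was -0.0829 to 0.155, over 0.1 in 2, so the numbers were not taken to pair the samples. With the replicate block, 61 genes were called for ENZ-INHIB against DNC-NONE (10 without) and 99 for ENZ-NONE against DNC-INHIB (78 without), Il1a was called against DNC-INHIB (0.779, adjusted p = 0.0496 by edgeR), and Il18 against DNC-INHIB (0.0153) and Il1a (0.00475) and Il1b (0.0101) for ENZ-INHIB against DNC-NONE changed sign. It is not known from the labels that a number marks a shared day.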
